A study of Caenorhabditis elegans with 2 samples.

Results

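Nuclear genes for mitochondrial protein import and mitochondrial chaperones were examined for FLT-1 peaks near their transcript starts in early embryos of Caenorhabditis elegans. The 7 genes were tomm-20, tomm-22, tomm-40, timm-23, timm-17B.1, hsp-6 and hsp-60, of 19973 protein-coding genes on the nuclear chromosomes. They were chosen by name with peak values of these lists known, so their values are given as a description and no test was made on them. A gene was counted when a peak's summit lay from 1000 bp upstream to 200 bp downstream of one of its annotated transcript starts.

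The measurement was chromatin immunoprecipitation with sequencing of FLT-1, a nuclear protein related to the mammalian BAZ2 subunits of chromatin remodelling complexes. The strain, OP797, carries wgIs797, a fosmid transgene of flt-1 with TY1, EGFP and 3xFLAG tags and unc-119(+), in an unc-119 (tm4063) background, and the labels also give baz-2 as the target. Antibody against GFP was used, so the protein recovered was the tagged transgene product and not the endogenous protein. Both samples were whole early embryos labelled as aged 1 hour and collected by egg bleaching, and they were 2 biological replicates of 1 group; the labelled control was not used here. All 8 deposited lists give peak positions with the authors' signal for each peak, in a unit that no label or header names, without counts of reads, and sequencing depth is therefore unknown.

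Most mitochondrial proteins are encoded in the nucleus, made in the cytosol and imported. In the outer membrane, the TOM complex receives precursors on receptor subunits and passes them through the TOM40 pore. The TIM23 complex then carries precursors with a targeting presequence across the inner membrane, drawn in by the matrix Hsp70, and the Hsp60 chaperonin with its Hsp10 lid folds many of them. In C. elegans, reporters of hsp-6 and hsp-60 are the usual readouts of the mitochondrial unfolded protein response, which the transcription factor ATFS-1 drives.

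Of the 7 genes, 4 had a peak in the pooled thresholded list, which holds 1083 peaks: hsp-60, tomm-20, timm-23 and hsp-6. Over all protein-coding genes the share with such a peak was 3.76% (750 of 19973; exact Clopper-Pearson 95% interval 3.50% to 4.03%, counting error only). The conservative list held peaks for hsp-60, tomm-20 and timm-23, 3 of the 7, against 3.42% of all genes. Replicate 1 alone gave 2 of the 7, hsp-60 and tomm-20, against 2.03% of all genes. Replicate 2 alone gave hsp-60, 1 of the 7, against 2.47% of all genes. Only hsp-60 among the 7 was therefore in the thresholded lists of both replicates. The share of all genes in both was not counted, so this 1 of 7 has no background beside it. The genes were selected on these same values, so nothing is read from the counts beyond their size.

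The ranked lists hold regions before the authors' reproducibility threshold and reached a large share of the genome's genes. That threshold is not the only difference. In the pooled ranked list, 175 regions had at least the lowest thresholded score, 831, and were not in the thresholded list. None of them had a summit in a window of the 7 genes or the wider list described below, but ranks in the pooled ranked list count them. The pooled ranked list had a region in the window of 6 of the 7 genes, all but tomm-40, against 47.3% of all genes. The ranked list of replicate 1 had one for all 7, against 50.8%, and that of replicate 2 had one for all 7, against 45.8%. Presence in a ranked list is therefore common, and the rank of the signal is given for each gene. In the pooled ranked list of 48126 regions, the median best rank over the 6 genes was at the top 2.70% of the list, against 32.3% over the 9438 genes with a region in their window. The corresponding medians were 10.3% against 36.5% in replicate 1 and 5.32% against 35.6% in replicate 2. The genes were selected with such values known, so these medians are a description only. The pooled median leaves out tomm-40, which had no pooled region.

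**Figure D1:**
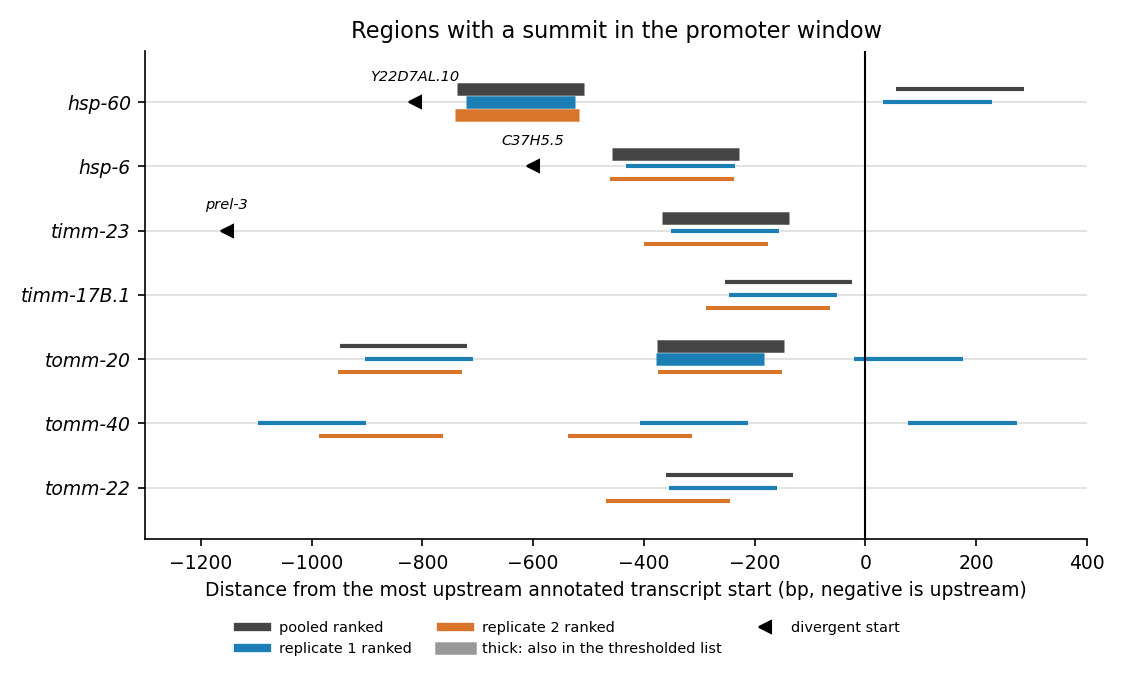
Each row shows 1 gene, and bars span the regions with a summit in its window, by distance in bp from its most upstream transcript start. Regions at inner starts, with a summit more than 200 bp downstream of that start, are not drawn. Thick bars are also in the thresholded list of the same source and black triangles are divergent starts. The pooled peak of hsp-60 is backed by thick bars of both replicates, that of tomm-20 by a thick bar of replicate 1, and those of timm-23 and hsp-6 by thin bars of both.

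The DNA under 4 member regions and under the peak of C34C12.8, a further folding gene described below, is shown because strings of letters recur among these 5 regions. Each is the whole 230 bp region from RefSeq's WBcel235 genome (ce11), read 5′ to 3′ on its gene's strand, so that the gene lies beyond the right end. The summit is at the middle of each. Capitals mark matches, on either strand, to GAANNTTC (a heat shock element core) or to CCAAT or to CTGNCGCA or to GTGCGCAC or to GGGCGGAG. The last 3 of these strings were picked after the sequences had been read.
hsp-60, III:1619004-1619233, plus strand: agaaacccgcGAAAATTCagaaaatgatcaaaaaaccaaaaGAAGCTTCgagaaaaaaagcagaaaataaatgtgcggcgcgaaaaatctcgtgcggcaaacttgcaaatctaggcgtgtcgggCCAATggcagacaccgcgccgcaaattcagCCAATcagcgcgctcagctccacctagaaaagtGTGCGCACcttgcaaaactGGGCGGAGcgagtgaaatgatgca
hsp-6, V:4826988-4827217, minus strand: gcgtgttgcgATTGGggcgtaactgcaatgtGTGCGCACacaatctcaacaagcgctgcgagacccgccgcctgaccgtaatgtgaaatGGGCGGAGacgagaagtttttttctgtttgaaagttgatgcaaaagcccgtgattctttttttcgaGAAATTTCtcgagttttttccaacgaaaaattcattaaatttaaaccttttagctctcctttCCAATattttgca
tomm-20, V:12343616-12343845, minus strand: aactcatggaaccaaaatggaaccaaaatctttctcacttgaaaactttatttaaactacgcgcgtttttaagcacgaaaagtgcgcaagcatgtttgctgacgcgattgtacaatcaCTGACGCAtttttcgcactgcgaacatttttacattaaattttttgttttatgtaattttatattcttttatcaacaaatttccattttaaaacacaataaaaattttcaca
timm-17B.1, IV:4745516-4745745, minus strand: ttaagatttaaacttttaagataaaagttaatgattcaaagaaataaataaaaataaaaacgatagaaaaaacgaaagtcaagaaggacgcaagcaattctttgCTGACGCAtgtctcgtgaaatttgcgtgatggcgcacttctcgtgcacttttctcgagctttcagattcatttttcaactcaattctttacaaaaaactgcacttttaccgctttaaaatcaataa
C34C12.8, III:3460161-3460390, plus strand: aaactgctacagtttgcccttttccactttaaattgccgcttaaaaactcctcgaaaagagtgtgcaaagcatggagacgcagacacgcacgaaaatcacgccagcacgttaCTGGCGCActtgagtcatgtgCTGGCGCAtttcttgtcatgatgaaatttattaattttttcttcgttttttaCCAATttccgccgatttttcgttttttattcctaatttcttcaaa

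The matrix chaperone hsp-60 (WBGene00002025, plus strand, 4 annotated starts) encodes the chaperonin that encloses and folds imported proteins. Its peak had a signal of 103 and rank 351 of 1083 in the pooled thresholded list, and rank 350 of 977 in the conservative list. The summit, at base 1619119 of the chromosome, lay 623 bp upstream of the first start, in the interval before the gene's first exon. The signal was 51.3 in replicate 1, rank 387 of 618, and 47.5 in replicate 2, rank 384 of 767. The replicate summits lay 0 bp and 6 bp from the pooled summit. In the ranked lists these regions stood at the top 0.952% of the pooled list, 1.10% of replicate 1 and 1.19% of replicate 2, so the 3 ranks were close to each other.

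The peak of hsp-60 was shared with a divergent gene of the same folding machine. Y22D7AL.10, annotated as the mitochondrial heat shock protein of 10 kDa, the lid of the chaperonin, starts 813 bp from hsp-60 on the other strand. The summit lay 190 bp upstream of Y22D7AL.10 and so nearer to it than to hsp-60, at 76.6% of the interval counted from hsp-60. With each peak given to the nearest start alone, this peak counted for Y22D7AL.10 and not for hsp-60. The lists hold no measure that assigns a shared peak to either gene. A weaker region lay 154 bp downstream of the first hsp-60 start in the pooled ranked list, with a signal of 41.1 and rank 2299. It had a counterpart in replicate 1, 113 bp downstream with a signal of 24.9 and rank 2679, and none in replicate 2, and it was in no thresholded list.

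The gene hsp-6 (WBGene00002010, minus strand) encodes the mitochondrial Hsp70, which works in the import motor and in folding. Its peak was the weakest of the 4 in the pooled thresholded list, with a signal of 47.3 and rank 1012 of 1083. The score of 870 was near the lowest score in that list, 831. The summit, at base 4827103, lay 343 bp upstream of the start. The regions of the replicates had signals of 21.4 in replicate 1, rank 5065 of 49032, and 22.5 in replicate 2, rank 2146 of 40309, and neither passed the threshold of its own list. Their summits lay 9 bp and 6 bp from the pooled summit. The irreproducible discovery rate (IDR) is the expected share of irreproducible peaks among those at least as reproducible between the inputs compared, and need not follow the signal. For hsp-6 it was 0.0422 in the other series-level ranked list, taken as the comparison of replicate against replicate. In the pooled ranked list it was 0.00799, and hsp-6 was absent from the conservative list.

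As at hsp-60, the peak of hsp-6 lay between divergent starts. C37H5.5, annotated as a homolog of nucleolar complex protein 3, starts 600 bp from hsp-6 on the other strand, and the summit was 257 bp upstream of it, at 57.2% of the interval counted from hsp-6. The region also covered annotated non-coding RNA genes on both strands, C37H5.15 (V:4827078-4827276, plus strand) and C37H5.16 (V:4826993-4827264, minus strand), each of which contained the summit. No tRNA, snRNA, snoRNA or microRNA gene lay within 250 bp of the leading summit of any of the 7 genes.

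Among the inner membrane translocase genes, timm-23 (WBGene00008857) encodes the channel subunit of the TIM23 complex. Its peak had a signal of 58.3, rank 808 of 1083 in the pooled thresholded list and rank 787 of 977 in the conservative list. The peak (I:11578273-11578502) had its summit 253 bp upstream of the start. In the replicates the regions had signals of 30.8, rank 1264 of 49032 (top 2.58%), and 27.2, rank 1322 of 40309 (top 3.28%). Neither was in its replicate's thresholded list, with an IDR of 0.136 in replicate 1 and 0.862 in replicate 2, although both stood above hsp-6 in signal rank. The summit of replicate 1 was at the pooled position and that of replicate 2 was 34 bp away. The window of prel-3, a PRELI/MSF1 domain gene on the other strand whose start is 1153 bp from that of timm-23, also held the summit, 900 bp upstream of prel-3.

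The gene timm-17B.1 (WBGene00017119, minus strand) encodes a putative Tim17 subunit of the same translocase and had the highest signal among the members without a thresholded peak. Its pooled region (summit 139 bp upstream) had a signal of 37.9, rank 2992 of 48126 (top 6.22%), and an IDR of 0.147, against 47.3 and 0.00799 for hsp-6, the weakest member peak inside the threshold. In the pooled ranked list hsp-6 had rank 1571, so many regions lay between these signals. The score of timm-17B.1 was 345, against a lowest score of 831 in the thresholded list. The replicates differed in rank: 12.3 in replicate 1 was rank 28589 of 49032 (top 58.3%), and 20.9 in replicate 2 was rank 2661 of 40309 (top 6.60%). Replicate against replicate, the IDR was 0.750. The nearest gene upstream, tctn-1, lies 331 bp away on the same strand, and no divergent start lay within 1000 bp.

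Of the outer membrane genes, tomm-20 (WBGene00009092, minus strand), for the presequence receptor TOM20, had the strongest peak. The pooled signal was 95.9, rank 384 of 1083, and the conservative rank was 382 of 977. The summit lay 262 bp upstream of the start, and tomm-20 was the only protein-coding gene whose window held it. Replicate 1 had a signal of 55.3, rank 352 of 618 in its thresholded list, with a summit 18 bp from the pooled one. Replicate 2 had a signal of 41.8 with the summit at the pooled position, and was not in its thresholded list, with an IDR of 0.0300. By signal alone tomm-20 stood at the top 1.03% of the pooled ranked list, 1.00% of replicate 1 and 1.48% of replicate 2. Presence in a thresholded list thus differed between replicates where the signal ranks were close.

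A weaker region farther upstream of tomm-20 appeared in the ranked lists of both replicates. Its pooled summit lay 834 bp upstream, with a signal of 33.3 and rank 4793, and the replicate signals were 17.5 and 13.4. The nearest gene upstream of tomm-20, snb-2, lies on the same strand with its nearer end 719 bp away. The pooled summit lay beyond that end of snb-2. The window of F23H12.3, which starts 1676 bp from tomm-20 on the other strand, also held that summit, 842 bp upstream of F23H12.3. This weaker region was in no thresholded list.

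The other TOM genes had weak regions. At tomm-22 (WBGene00021133), for the central receptor TOM22, the leading pooled region (II:470605-470834) lay 245 bp upstream with a signal of 18.3, rank 28080 of 48126 (top 58.3%), below the list's median signal of 19.9. The regions overlapping it had signals of 10.7 (top 72.9%) in replicate 1 and 12.1 (top 38.8%) in replicate 2, the latter 111 bp away. A second pooled region, 4 bp upstream of an inner start of tomm-22, had a signal of 15.2 and rank 35281. At tomm-40 (WBGene00007686), for the pore itself, the pooled ranked list had no region in the window. The replicate-against-replicate list had one (II:8973732-8973961) 281 bp upstream with a signal of 26.5, rank 10916 of 47459 and an IDR of 0.667. The overlapping regions of the replicates had signals of 11.4 (top 66.2%) and 9.41 (top 65.0%), with summits 28 bp and 144 bp away. That of replicate 2 covered 36.1% of the region. The strongest region in the window lay elsewhere in each replicate. It was 999 bp upstream in replicate 1 (signal 13.0) and 874 bp upstream in replicate 2 (signal 10.6). No region of tomm-22 or tomm-40 was in a thresholded list.

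**Figure D2:**
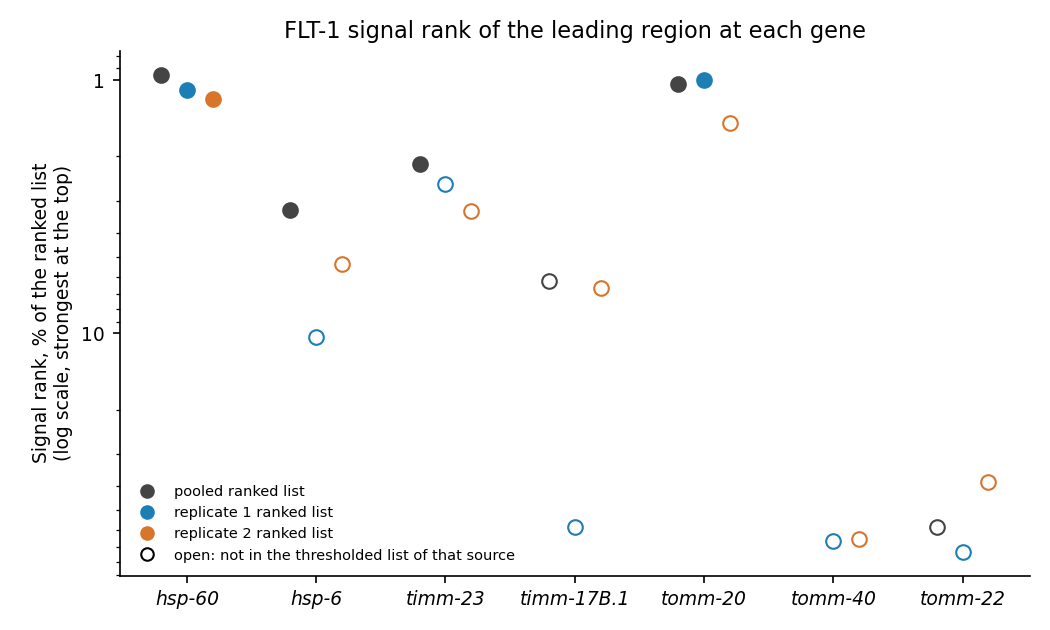
The vertical log axis gives the signal rank of each gene's leading region as a percent of its ranked list, strongest at the top, for the pooled list and for each replicate's overlapping region; filled points are also in the thresholded list of that source. The points of hsp-60 and of tomm-20 lie between 0.952% and 1.48%, while timm-17B.1 has replicate 2 at 6.60% and replicate 1 at 58.3%; tomm-40 has no pooled point.

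The 4 member peaks were set against the 557 pooled thresholded peaks with a summit in a protein-coding window. Those peaks had a median signal of 72.0, with quartiles of 58.2 and 103. The signals of hsp-60 and tomm-20 lay above that median, and those of timm-23 and hsp-6 below it. The distance of the 557 peaks upstream of their nearest start had a median of 214 bp, with quartiles of 112 and 415 bp, and 31.4% lay between divergent starts. On that measure the summits of hsp-60 (190 bp, to Y22D7AL.10), timm-23 (253 bp), hsp-6 (257 bp, to C37H5.5) and tomm-20 (262 bp) were all between the quartiles.

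**Figure D3:**
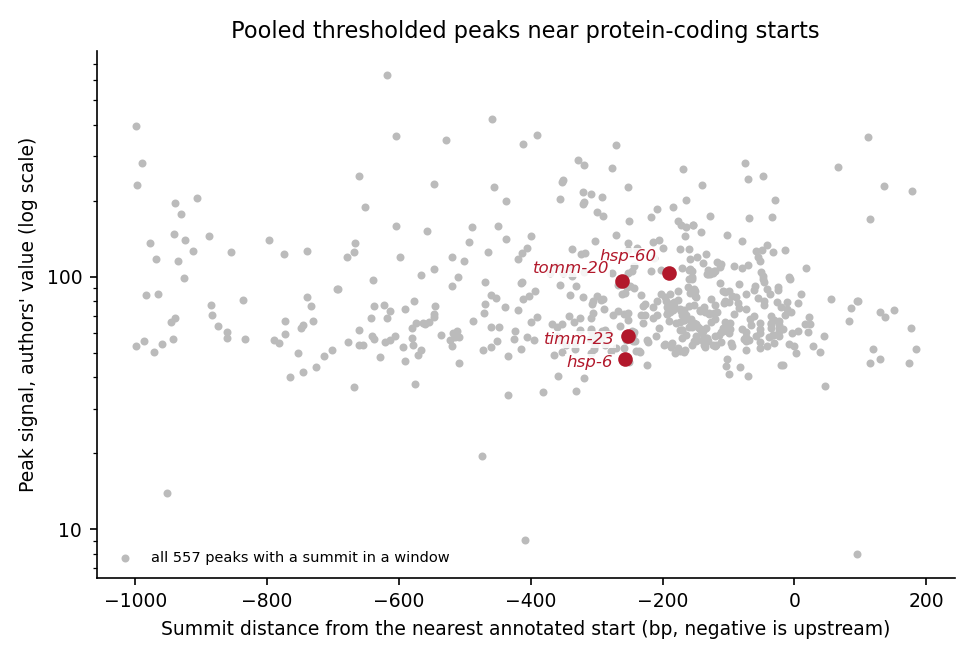
Each point is 1 of the 557 pooled thresholded peaks, with the authors' signal on a log axis against the distance of its summit to the nearest annotated start. The points of hsp-60 and hsp-6 stand at the start of their divergent partner, 190 bp and 257 bp away, and those of tomm-20 and timm-23 at their own.

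Beyond the 7 genes, a wider list of 30 import, folding, processing, protease and stress response genes was examined. It held a pooled thresholded peak for 3 (10%), against 3.76% of all genes: Y22D7AL.10, ddp-1 and C34C12.8. The wider list was also chosen with earlier results of these data known, so its share is a description only. The peak of Y22D7AL.10 is the one already counted for hsp-60. The peak of ddp-1, which encodes the Tim8 chaperone of the intermembrane space, had a signal of 107 and rank 329 of 1083, 159 bp upstream of its start. It was in the thresholded lists of both replicates, with 51.3 (rank 386 of 618) and 52.2 (rank 343 of 767), values close to those of hsp-60. The window of ttc-7 also held it, 700 bp upstream. The peak of C34C12.8, for the GrpE homolog that acts as nucleotide exchange factor of mitochondrial Hsp70, had a signal of 71.9 and rank 584 of 1083, 130 bp upstream. It was in the thresholded list of replicate 2 (40.7, rank 495 of 767) and not in that of replicate 1, where the overlapping signal was 27.8. No pooled thresholded peak lay in the windows of the matrix chaperone genes dnj-10 and hsp-75.

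Other genes of the wider list came near a threshold or stayed away from it. The outer membrane assembly gene mtx-1 was in the thresholded list of replicate 2 (signal 32.2, rank 689 of 767) and in no pooled thresholded list, with a pooled ranked signal of 54.5. That summit was 53 bp from the start of the divergent gene dnj-12 and 439 bp from that of mtx-1. The protease gene clpp-1 had a pooled ranked signal of 52.1 and an IDR of 0.0301. That summit lay inside clpp-1, 79 bp upstream of an inner start and not near its most upstream start. The window of mdt-22 also held it, 57 bp upstream of mdt-22. The genes mtx-1 and clpp-1, and the others named outside the stated rule, were chosen after their values were seen. The stress response regulators atfs-1, dve-1, ubl-5 and haf-1 had best pooled ranked regions with signals from 12.6 at haf-1 to 33.7 at ubl-5, none of them in a thresholded list. No list held a region in the window of gop-3 or tin-13. The 24 genes of the 30 with a pooled ranked region had a median best rank at the top 21.4%, against 2.70% for the 6 members and 32.3% for all genes. These medians are a description only, since the members and the wider list were chosen with earlier results known.

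**Figure D4:**
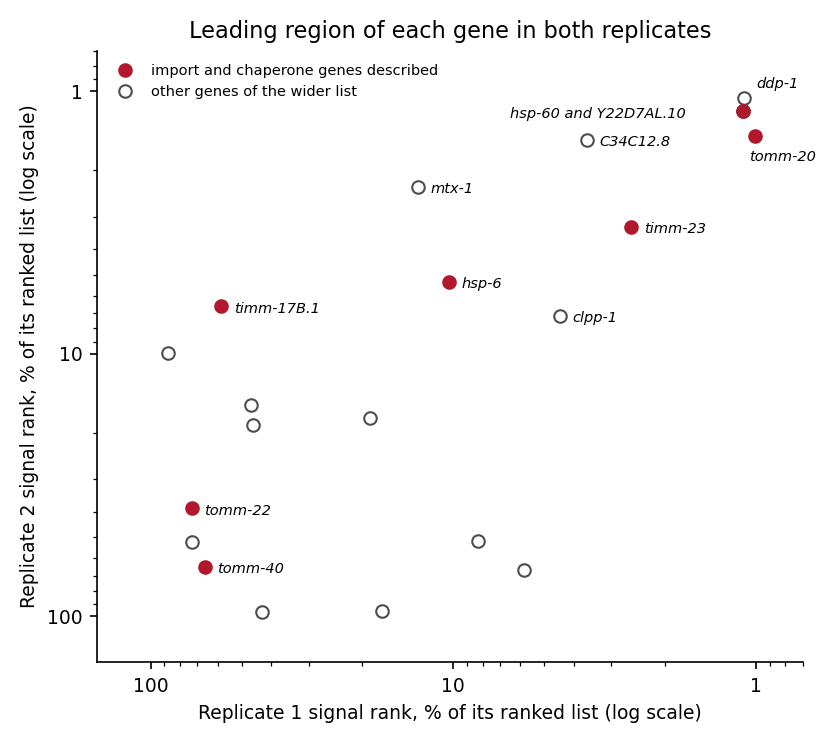
Each point is a gene of the members or of the wider list whose leading region was overlapped in the ranked lists of both replicates, 21 genes in all, with the signal rank in each replicate as a percent of its list on log axes. The upper right holds ddp-1, hsp-60 with Y22D7AL.10, and tomm-20, all at 1.48% or less in both replicates. Both timm-17B.1 and mtx-1 rank higher in replicate 2 than in replicate 1, as do others, hsp-75 and scpl-4 among them. Some, such as ymel-1 and tin-9.2, rank higher in replicate 1.

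Some strings recurred among the regions shown. The regions of tomm-20, timm-17B.1 and C34C12.8 each held CTGNCGCA, and C34C12.8 held it at 2 places; the matches began at bases 105 to 134 of the 230. The regions of hsp-60 and hsp-6 held no CTGNCGCA and shared GTGCGCAC and GGGCGGAG, along with GAANNTTC and CCAAT. The region of timm-23 held GAANNTTC as its only match, that of tomm-22 held CCAAT and GAANNTTC, and that of tomm-40 held none of the strings searched. None of the regions of these 8 genes held CACGTG (an E-box), TGACGTCA (of the cyclic AMP response element), GTTCGANNC (box B of RNA polymerase III genes) or GAGAGAG.

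The strings that were picked by eye were counted over all windows of the same length, both strands. CTGNCGCA was in 10.6% of the 557 peaks near starts, in 7.48% of all 1083 peaks and in 1.28% of the 230 bp upstream of all protein-coding genes. Without the peaks of the members and the wider list, it was in 56 of 551, or 10.2%. Its letters read backwards, ACGCNGTC, were in 1.44% of the 557 and 0.611% of promoters. Of the 255 genes with CTGNCGCA in that stretch, 51 (20%) had a pooled thresholded peak, against 3.54% of the genes without it. The 255 include timm-17B.1 and C34C12.8, from whose regions the string was read, and C34C12.8 is among the 51. This share was not recounted without the members and the wider list. GGGCGGAG was in 6.46% of the 557 peaks and 2.17% of promoters, and its letters read backwards, GAGGCGGG, in 1.44% and 0.486%. GTGCGCAC was in 1.08% and 0.175%, and its letters read backwards, CACGCGTG, in 0.539% and 0.135%. Without the peaks of the members and the wider list, GGGCGGAG was in 34 of 551 (6.17%) and GTGCGCAC, picked from the regions of hsp-60 and hsp-6, in 4 of 551 (0.726%). The strings at hsp-60 and hsp-6 that were not picked from these sequences were no more frequent under peaks than in promoters: GAANNTTC was in 12.6% of the 557 peaks and 14.4% of promoters, and CCAAT in 33.4% and 36.3%. GTTCGANNC and GAGAGAG, which the 8 regions lacked, were more frequent under peaks, with 10.6% against 1.06% and 13.5% against 5.77%. These matches describe letters and are no evidence of a bound site.

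The base composition of the windows differed as well. The share of G and C was 48.7% at hsp-60 and 42.6% at hsp-6, near the median of 45.7% over all 1083 peak windows (quartiles 40.9% and 49.8%). It was 37.8% at timm-23, 31.3% at timm-17B.1 and 30.4% at tomm-20, with a promoter median of 33.0% (quartiles 29.6% and 37.4%). At C34C12.8 it was 39.6%. GGGCGGAG, GTGCGCAC and CTGNCGCA are themselves rich in G and C, and the part of base composition in their shares was not tested.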

How the data were processed

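The data were FLT-1 peak lists of 2 biological replicates of 1 group, on the ce11 assembly per the labels. Not given in the sources used here were the aligner and the caller of the peaks. The deposited signal of each peak is the authors' value, used to rank peaks within a list. The deposited score is a whole number up to 1000. The deposited −log10 IDR of the ranked lists was converted to an IDR. The 8 columns of each ranked list that describe its inputs carry no sample name and were not used. The replicate and pooled lists are the authors' own, so replicates were compared through their own lists. Both series-level ranked lists are described alike. The list sharing more peaks with the pooled thresholded list, by position and score, was taken as the pooled ranked list. That list held all 1083 pooled thresholded peaks. The other was taken as the comparison of replicate against replicate. No read counts were given, so precision is limited to the counts of peaks and genes, and intervals cover counting error only.

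Summits were set against Ensembl release 115 gene models of WBcel235 with a window of 1000 bp upstream to 200 bp downstream of any transcript start, counting a peak for every gene whose window held its summit. For the 7 members, the most upstream annotated start lay from 0 bp (tomm-40) to 19 bp (timm-17B.1) from the start codon. Whether these starts mark where transcription begins was not tested, and all distances are to annotated starts. Symbols came from RefSeq. Rank 1 is the highest signal. A leading region is a gene's highest in the pooled thresholded list, then the pooled ranked list, then the replicate-against-replicate list, with replicate support by overlap of at least 1 bp. Named genes were the 7 members, wider-list genes with a pooled thresholded peak, genes sharing a member peak, and small RNA genes within 250 bp of it. Other wider-list genes are named outside this rule, after their values were seen. So are the genes nearest upstream of tomm-20 and timm-17B.1, and genes sharing a named wider-list region. The members, the wider list and the strings were chosen with earlier results of these data known. Of 48 candidate names, 37 matched a gene, 10 matched none, and trap-1 was left out because RefSeq annotates that symbol as an endoplasmic reticulum protein. Strings were counted in windows of 115 bp on each side of a summit and in the 230 bp upstream of each gene. The sequence under 1 wider-list peak is not reported here. Window assignment was checked on simulated data. Python 3.11.15, NumPy 2.4.6, SciPy 1.17.1 and Matplotlib 3.10.9 were used.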

Additional observations from a re-analysis of the deposited data

How the results depend on the processing

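The count of the 7 genes with a pooled thresholded peak, 4, became 0 with a window of 250 bp on either side of the start, 2 when only peaks at or above the median signal counted (hsp-60 and tomm-20), and 2 when each peak counted for its nearest start alone (tomm-20 and timm-23). With 1 replicate's list in place of the pooled list it ranged from 1 (replicate 2, hsp-60) to 2 (replicate 1, hsp-60 and tomm-20). It was 3 with 500 bp upstream, without hsp-60, and 3 in the conservative list, without hsp-6. The count of the 30 further genes stayed between 2 and 4 in every setting tried, against 3. The share of all genes, 3.76%, became 1.87% with 250 bp on either side, 1.82% at or above the median signal, and 2.03% to 2.47% with 1 replicate. That share was 2.67% with the nearest start alone, 2.88% with 500 bp upstream and 3.42% in the conservative list. The count in both replicates was 1, hsp-60, in each setting tried, and no share of all genes was counted for it. Ranked by score, hsp-60 and tomm-20 were both at rank 1, tied with other regions at a score of 1000. Among the 13543 regions in a window, the signal ranks were 143 for hsp-60, 162 for tomm-20, 454 for timm-23, 726 for hsp-6, 1250 for timm-17B.1 and 8231 for tomm-22. Unknown depth limits every statement that a gene lacks a peak. No paired analysis was possible because there was 1 group.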
